A study of Mus with 4 samples.

Results

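Pericytes and vascular smooth muscle cells, together called mural cells, wrap the endothelial tubes of the heart. Transcripts of 9 genes that mark these cells or build the elastic wall around them were followed in newborn hearts. They were 4 pericyte genes (*Pdgfrb*, *Rgs5*, *Cspg4* and *Kcnj8*), 4 smooth muscle genes (*Acta2*, *Myh11*, *Tagln* and *Cnn1*) and *Eln*, which encodes elastin. The genes were picked by Ensembl ID from the 55487 IDs of the expression table, and the IDs were matched without their version suffix. All 9 were found, and all 9 reached the mean of 1 FPKM (fragments per kilobase of transcript, scaled to the mapped fragments of a library) that was required for testing, as did 14325 IDs in total.

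The libraries came from mouse heart tissue at postnatal day 0 (P0), with 2 from wild-type (WT) mice and 2 from mice overexpressing miR-187, a microRNA that lowers the output of messenger RNAs it pairs with. In the study's knock-in (KI) line, CRISPR/Cas9 placed mmu-miR-187 at *Rosa26* on a C57BL/6J background under the *Tek* (*Tie2*) promoter and enhancer, which are active in endothelial cells. Mural cells are thus not the cells in which the transgene was designed to act. The labels give neither zygosity nor whether a library was 1 heart or a pool; the study's methods name KI/KI and WT pups. Heart tissue is the labelled source, although cardiac endothelial cells are named in those methods, and the labelled tissue could not be checked against its markers because no other ID was paired with a gene name. Since nothing says that replicates were separate animals, p-values here are set against a spread between libraries that may be partly technical. In limma the spread of each ID is also moderated toward that typical of IDs at a similar level.

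Mural cells are recruited to growing vessels by platelet-derived growth factor B, which endothelial cells release and which binds the receptor encoded by *Pdgfrb*. Pericytes sit on capillaries and small venules, while smooth muscle cells form the contractile coat of coronary arteries and of the great vessels and lay down elastin there. Signals between endothelium and mural cells run in both directions. The question addressed here was whether mural cell transcripts differed between hearts with and without the endothelial transgene.

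The libraries differed in ways that did not follow the groups. FPKM sums ran from 750826 to 807359, and the median over all IDs was higher in the replicate 1 libraries (WT 0.562, miR-187 0.402) than in the replicate 2 libraries (WT 0.241, miR-187 0.261). The ID with the highest mean held between 3.03% and 21.0% of a library's sum, more in both replicate 1 libraries. FPKM carry no counts, so read depth is unknown.

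For none of the 9 mural genes was a difference between groups detected with these 4 libraries. In FPKM as deposited, the values of the groups overlapped for every member, so that 0 of 9 were separated, whereas 25.5% of all tested IDs were. After Benjamini-Hochberg adjustment in limma, 0 of 9 passed 0.05, against 0.00698% (1 ID) of all tested. At an unadjusted p under 0.05 the count was again 0 of 9, against 3.12% of all tested IDs. Mean log2(FPKM + 1) was higher in miR-187 for 4 members and lower for 5. The median log2 difference was -0.02 over the members and -0.04 over all tested IDs. The smallest unadjusted p, 0.178, belonged to *Myh11*, and the limma adjusted p was 0.9997 for each member. Since 2 libraries against 2 cannot give a two-sided exact permutation p below 0.333, no such test was run on single genes.

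**Figure D1:**
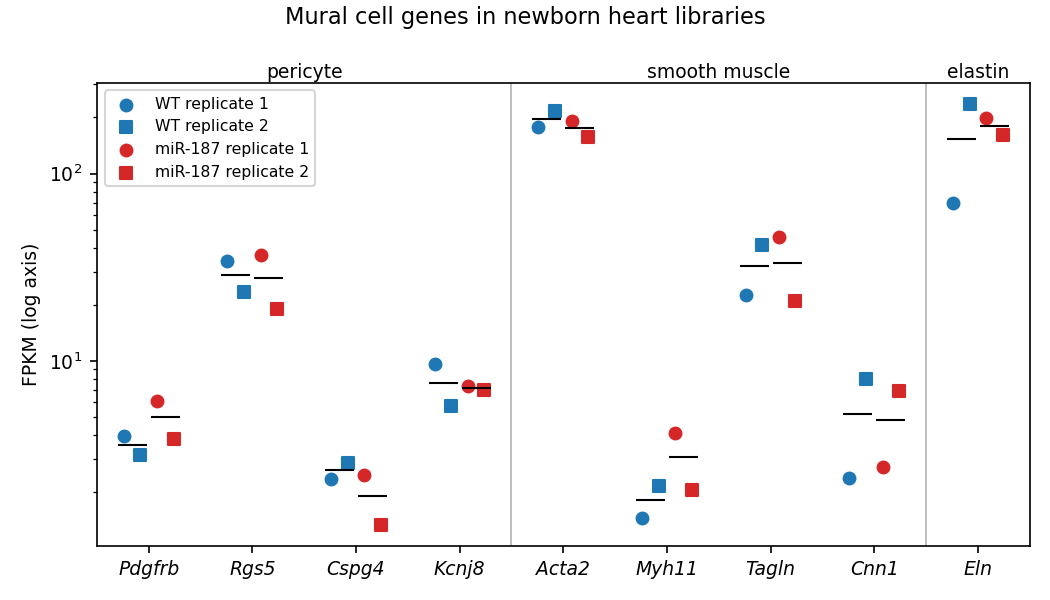
FPKM (log axis) of the 9 mural cell genes in each library, with circles for replicate 1, squares for replicate 2, blue for WT and red for miR-187; black bars are group means of 2 libraries. The blue and red points interleave for every gene, and the genes range from 1.33 FPKM (*Cspg4*, miR-187 replicate 2) to 237 FPKM (*Eln*, WT replicate 2).

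FPKM divide by transcript length, so levels can be set side by side. Ordered by mean FPKM over the 4 libraries, the members were *Acta2* (186), *Eln* (167), *Tagln* (32.7), *Rgs5* (28.3), *Kcnj8* (7.41), *Cnn1* (5.005), *Pdgfrb* (4.26), *Myh11* (2.43) and *Cspg4* (2.24). Neighbours in this order overlapped in their ranges over the libraries, except at the step from *Eln* to *Tagln* and the step from *Rgs5* to *Kcnj8*. *Acta2* led this order because of WT replicate 1, since *Eln* was the higher of the pair in each of the other libraries. Among tested IDs, 97.7% had a lower mean than *Acta2* and 97.5% a lower mean than *Eln*, but only 33.8% were below *Myh11* and 30.9% below *Cspg4*. *Pdgfrb* stood in the middle of the tested range, with 52.1% of IDs below it.

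The pericyte genes were examined first. *Pdgfrb* (ENSMUSG00000024620.11) encodes the receptor tyrosine kinase through which pericytes are attracted to endothelium. In order of replicate number, its FPKM were 3.94 and 3.15 for WT hearts and 6.13 and 3.83 for miR-187 hearts. Replicate 1 of miR-187 stood above the other libraries, while replicate 2 lay between the WT values. The log2 difference, miR-187 minus WT, was 0.38 with a 95% interval from -0.36 to 1.11 (limma). It was 0.09 without miR-187 replicate 1 and 0.66 without miR-187 replicate 2. WT averaged 3.55 ± 0.563 FPKM, and miR-187 averaged 4.98 ± 1.62 FPKM (± SD with n = 2 in each group).

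*Rgs5* (ENSMUSG00000026678.10; chromosome 1, 169655501 to 169695813) encodes a regulator of G protein signalling and was the most abundant of the 4 pericyte transcripts. WT hearts gave 34.0 and 23.3 FPKM, and miR-187 hearts gave 36.8 and 18.9 FPKM, again in order of replicate number as below. The miR-187 libraries held both its highest and its lowest value. WT averaged 28.7 ± 7.56 FPKM against 27.8 ± 12.7 FPKM for miR-187 (± SD, n = 2). The log2 difference was -0.09 (interval -0.96 to 0.78). The sign turned without WT replicate 1 (0.17) and without miR-187 replicate 2 (0.37).

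*Cspg4* (ENSMUSG00000032911.6; chromosome 9, 56865104 to 56899870) encodes the NG2 proteoglycan of the pericyte surface, which is also made by oligodendrocyte precursors in the brain. WT libraries had 2.34 and 2.85 FPKM, compared with 2.45 and 1.33 FPKM for miR-187. One miR-187 library was thus within the WT range and the other below it. The log2 difference was -0.34 (interval -1.07 to 0.39), and WT averaged 2.59 ± 0.358 FPKM against 1.89 ± 0.787 FPKM for miR-187 (± SD, n = 2). The difference was -0.62 without miR-187 replicate 1 and -0.06 without miR-187 replicate 2.

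*Kcnj8* (ENSMUSG00000030247.9; chromosome 6, 142564837 to 142571614) encodes Kir6.1, a pore subunit of ATP-sensitive potassium channels that helps set the tone of mural cells. It was at 9.60 and 5.71 FPKM in WT libraries and at 7.32 and 6.999 FPKM in miR-187 libraries. Both miR-187 values fell between the WT values, and they differed by only 1.05 times, whereas the WT libraries differed by 1.68 times. The log2 difference was -0.05 (interval -0.81 to 0.72), and it was 0.28 without WT replicate 1.

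Of the smooth muscle genes, *Acta2* (ENSMUSG00000035783.9; chromosome 19, 34240336 to 34255585) encodes smooth muscle alpha-actin. It is also transcribed by immature cardiomyocytes and activated fibroblasts. WT hearts gave 177 and 218 FPKM, and miR-187 hearts gave 192 and 158 FPKM. It was the steadiest of the 9 members, with a ratio of 1.38 between its highest and lowest library, a ratio that only 12.9% of tested IDs stayed below. WT averaged 197 ± 28.9 FPKM against 175 ± 24.1 FPKM for miR-187 (± SD, n = 2), and the log2 difference was -0.17 (interval -1.05 to 0.71). With single libraries left out, the difference ran from -0.32 to -0.02. Other actin genes have nearly the same coding sequence; how reads shared among them were assigned is not given in the sources used here.

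*Myh11* (ENSMUSG00000018830.10; chromosome 16, 14194527 to 14292188) encodes smooth muscle myosin heavy chain, which is largely confined to mature smooth muscle. WT libraries had 1.45 and 2.14 FPKM, compared with 4.11 and 2.03 FPKM for miR-187. Its highest value was in miR-187 replicate 1, while miR-187 replicate 2 lay just below WT replicate 2. The log2 difference of 0.51 (interval -0.25 to 1.26) was the farthest from 0 of any member. It rested mainly on miR-187 replicate 1, without which it was 0.13.

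*Tagln* (ENSMUSG00000032085.5; chromosome 9, 45929628 to 45936058) encodes SM22-alpha, an actin-binding protein of smooth muscle that immature cardiomyocytes make as well. It was measured at 22.5 and 41.8 FPKM in WT hearts and at 45.7 and 21.0 FPKM in miR-187 hearts. Each group contained a lower and a higher library, and the averages were 32.2 ± 13.7 FPKM for WT and 33.3 ± 17.5 FPKM for miR-187 (± SD, n = 2). The log2 difference was 0.01 (interval -0.90 to 0.93), turning to -0.42 without WT replicate 1 and to -0.53 without miR-187 replicate 1. In the RefSeq annotation of GRCm38.p6, 2480 bases of this locus lie within *Pcsk7*, and since the use of strand in quantification is not given, reads in that stretch cannot be assigned with certainty.

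*Cnn1* (ENSMUSG00000001349.5; chromosome 9, 22099221 to 22109221) encodes calponin 1, which binds actin and restrains smooth muscle myosin. WT hearts gave 2.36 and 8.04 FPKM, and miR-187 hearts gave 2.72 and 6.91 FPKM. Both replicate 2 libraries were above both replicate 1 libraries, by 3.41 times in WT and 2.54 times in miR-187. These ratios were larger than those of 96.7% and 92.4% of tested IDs. The log2 difference between groups was -0.02 (interval -0.93 to 0.89). With TMM (trimmed mean of M-values) scaling it was 0.02. It moved to 0.69 without WT replicate 2 and to 0.52 without miR-187 replicate 1. In the other direction, it moved to -0.74 without WT replicate 1 and to -0.57 without miR-187 replicate 2.

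*Eln* (ENSMUSG00000029675.12; chromosome 5, 134702595 to 134747368) encodes tropoelastin, the soluble precursor that is cross-linked into the elastic fibres of arteries and valves. Around birth it is made in large amounts by smooth muscle cells of the great vessels and by fibroblasts. WT replicate 1 had 69.7 FPKM and WT replicate 2 had 237 FPKM, while the miR-187 libraries had 199 and 161 FPKM. The 3 libraries other than WT replicate 1 were within 161 to 237 FPKM, and WT replicate 1 stood below them. The log2 difference was 0.47 (interval -0.56 to 1.502). It became -0.40 without WT replicate 1 and 1.35 without WT replicate 2, so its direction depended on which WT library was kept. Of this locus, 1657 bases overlap the long noncoding RNA gene *Gm30003*.

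**Figure D2:**
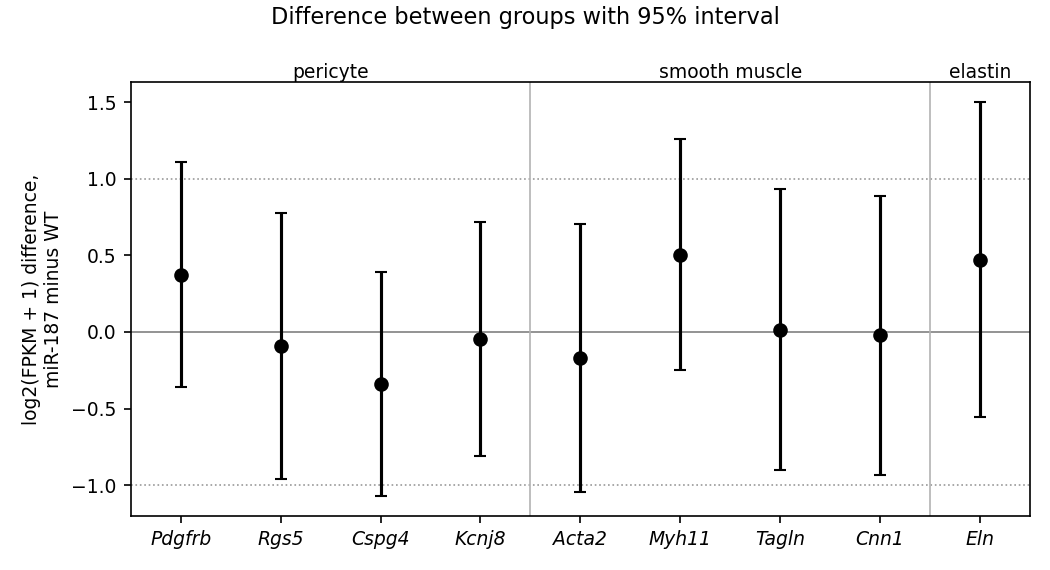
Difference in log2(FPKM + 1), miR-187 minus WT, for each mural cell gene; points are limma estimates from 2 libraries per group, bars are 95% intervals and dotted lines mark a difference of 1 in either direction. All 9 intervals, which use limma's moderated variances, cross 0, and those of *Rgs5*, *Kcnj8*, *Tagln* and *Cnn1* lie between -1 and 1.

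The intervals show what this comparison could resolve. Their widths rest on variances that limma moderates toward those typical of IDs at a similar level. An interval can therefore be narrower than a member's own replicates would give. This holds for *Cnn1*, which differed by 3.41 times between WT libraries and 2.54 times between miR-187 libraries. For 4 members, *Rgs5*, *Kcnj8*, *Tagln* and *Cnn1*, the interval lay within a log2 difference of 1 in either direction. For the other 5 a difference of 1 was inside the interval, on the side of higher values in miR-187 for *Pdgfrb*, *Myh11* and *Eln* and on the side of lower values for *Cspg4* and *Acta2*. The scale of log2(FPKM + 1) understates changes of *Cspg4*, *Myh11* and *Pdgfrb*, which are near the added 1 FPKM. The same holds for *Cnn1*, which was at 2.36 FPKM in WT replicate 1 and 2.72 FPKM in miR-187 replicate 1. The median standard error was 0.42 over the members and 0.37 over all tested IDs. In bulk tissue, the source given by the labels, fewer cells of a type and less RNA per cell cannot be told apart. If the libraries were instead endothelial cells isolated with beads, mural transcripts could come from cells carried along in the isolation or from the isolated cells themselves. This was not tested.

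The separation of the groups depended on scaling for some of the rarer transcripts. With TMM factors, the groups no longer overlapped for 3 of 9 members, against 26.8% of all tested IDs. With median centring the same 3 were separated, against 27.0%. *Pdgfrb* was then at 3.91 and 3.09 in WT and at 5.70 and 4.25 in miR-187, in TMM-scaled FPKM. *Myh11* was at 1.43 and 2.10 in WT and at 3.82 and 2.25 in miR-187, also higher in miR-187. *Cspg4* went the other way, with 2.32 and 2.79 in WT and 2.27 and 1.48 in miR-187. The 3 were thus close to the share seen among all IDs, and the limma adjusted p stayed at 0.9998 with TMM factors.

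Every member but *Acta2* differed more between replicates of at least 1 group than any member did between groups (at most a log2 difference of 0.51, for *Myh11*). The replicate differences were largest for *Cnn1* and *Eln*, each with a log2 ratio of FPKM of 1.77 between the WT libraries. The WT libraries differed by 2-fold or more in 2 members (*Cnn1* and *Eln*), and 17.6% of tested IDs did so. The miR-187 libraries differed by 2-fold or more in 3 members (*Myh11*, *Tagln* and *Cnn1*), against 17.1% of tested IDs. With TMM factors 1 member did (*Cnn1*), against 14.8%, and after rescaling without the most abundant ID 5 did, against 27.1%. As deposited, the members spanned a median of 2.14 times from the lowest to the highest library, compared with 1.88 times for tested IDs. WT replicate 2 held the highest value for 4 members and miR-187 replicate 1 for another 4, whereas miR-187 replicate 2 held the lowest for 4 and the highest for 0. WT replicate 1 was lowest for 3 members (*Myh11*, *Cnn1* and *Eln*). The counts of lowest values depended on scaling, because with TMM factors *Tagln* was also lowest in WT replicate 1, giving 4 members there and 3 in miR-187 replicate 2. After rescaling without the most abundant ID, *Acta2* was highest in miR-187 replicate 1, so that this library led for 5 members and WT replicate 2 for 3.

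**Figure D3:**
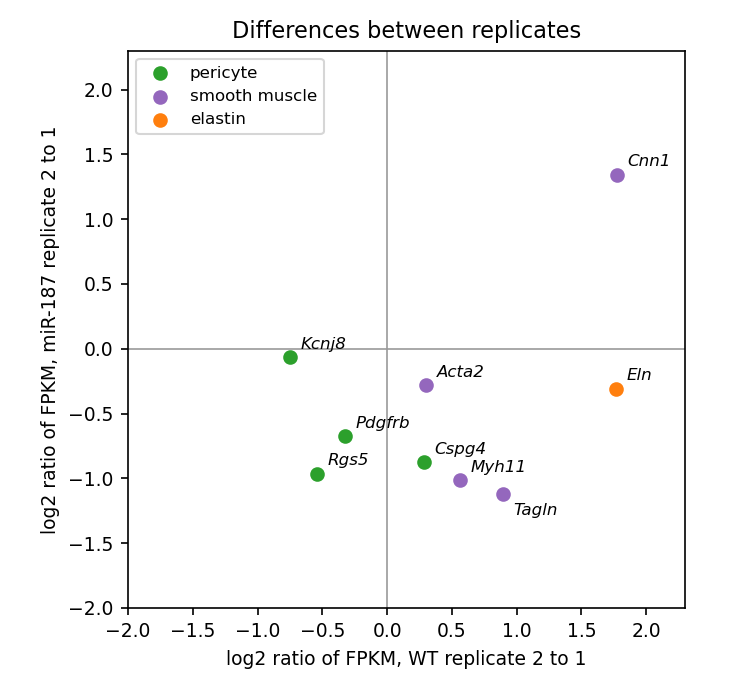
Log2 ratio of FPKM between replicate 2 and replicate 1, in WT (horizontal) and in miR-187 (vertical), for the 9 genes coloured by role. *Cnn1* is above 0 on both axes, *Rgs5*, *Pdgfrb* and *Kcnj8* are below 0 on both, and the other 5 are above 0 for WT and below 0 for miR-187. In TMM-scaled FPKM, which are not plotted, *Kcnj8* turns to 0.19 on the vertical axis.

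Averages over each group of genes were set beside the library values. Averaged over the 4 pericyte genes, log2(FPKM + 1) was 3.15 and 2.84 for WT libraries and 3.23 and 2.70 for miR-187 libraries. Averaged over the 4 smooth muscle genes it was 3.77 and 4.50 for WT libraries and 4.35 and 4.09 for miR-187 libraries. The pericyte average was higher in both replicate 1 libraries, the ones with the higher median over all IDs and the larger share held by the most abundant ID. With TMM factors this average was 3.13 and 2.81 for WT and 3.14 and 2.82 for miR-187, again higher in both replicate 1 libraries. As deposited, *Rgs5*, *Pdgfrb* and *Kcnj8* each had both replicate 1 libraries above both replicate 2 libraries, and *Cspg4* did not. With TMM factors and with median centring *Rgs5* alone of the 4 kept that order. The smooth muscle genes differed among themselves, since *Cnn1* was lowest in WT replicate 1 and highest in WT replicate 2, whereas *Myh11* and *Tagln* were highest in miR-187 replicate 1 and *Acta2* was lowest in miR-187 replicate 2.

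Ratios within a library do not depend on a library's scale, so all 36 ratios between pairs of members were formed. The groups did not overlap in 9 of the 36, against 27.8% of all pairs of tested IDs with values above 0 in each library. The 36 ratios share members and are not independent of one another. The ratio of *Acta2* to *Myh11* was 122 and 102 in WT and 46.7 and 77.7 in miR-187, lower in both miR-187 libraries. The ratio of *Rgs5* to *Pdgfrb* was likewise lower in miR-187, at 5.999 and 4.92 compared with 8.63 and 7.42 in WT. *Myh11* to *Cspg4* was higher in miR-187, at 1.68 and 1.53 compared with 0.618 and 0.752. These pairs were chosen after their values were seen, and the share of separated ratios was no higher than that among all IDs.

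Other ratios varied more within groups than between them. *Tagln* to *Cnn1*, a pair of calponin-family proteins, was 9.55 and 5.20 in WT and 16.8 and 3.04 in miR-187. The ratio of *Acta2* to *Cnn1* was 75.0 and 70.6 in the replicate 1 libraries of WT and miR-187, but 27.1 and 22.9 in their replicate 2 libraries. *Acta2* to *Eln* was 0.919, 0.965 and 0.982 in WT replicate 2 and the miR-187 libraries, but 2.54 in WT replicate 1. The lower *Eln* value of that library was therefore not shared by *Acta2*.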

How the data were processed

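RNA-seq libraries of P0 mouse hearts (2 WT, 2 miR-187) were analysed from the FPKM table that the authors deposited. The submitters' processing notes name HISAT2, StringTie, DESeq2 and the mm10 build. Versions, annotation and use of strand are not given in the sources used here. No counts could be obtained, so depth is unknown and no count model was used here.

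A limma 3.58.1 model (R 4.3.3; lmFit, eBayes with a trend, no replicate block) was fitted to log2(FPKM + 1) of the 14325 IDs whose mean reached 1 FPKM. The p-values are two-sided with Benjamini-Hochberg adjustment over all of these IDs and a threshold of 0.05. Positions came from RefSeq (GRCm38.p6), in which all 9 symbols but 0 Ensembl IDs were found. A further 10 lists with 81 symbols, among them other pericyte, smooth muscle and elastic fibre genes and markers of other cells, were therefore not analysed here, nor were sequences. The members and lists were chosen with earlier results of these data known. All 9 members are named.

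Alternatives were a pseudocount of 0.1, a minimum mean of 5 FPKM, no filter, median centring, TMM factors, a replicate block, eBayes without its trend and leaving out single libraries. Rescaling without the most abundant ID was chosen after seeing the data. Figures were drawn with matplotlib 3.10.9.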

Additional observations from a re-analysis of the deposited data

How the results depend on the processing

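Across the alternatives that kept every library, 0 of 9 members had an adjusted p under 0.05 (limma). Over all tested IDs, these fits called from 0 IDs (no filter, or a minimum mean of 5 FPKM) to 51 IDs (replicate block). Rescaling without the most abundant ID called 32. Apart from the omission of libraries, the alternatives gave 69 member values, of which 67 kept the direction. Many of these could not change. The log2 difference is the main one by construction with no filter, a minimum mean of 5 FPKM, a replicate block or no trend. *Cnn1* turned to 0.0218 with TMM factors and to 0.0154 with median centring. With TMM factors and with median centring, 3 members had groups that did not overlap, against 26.8% and 27.0% of all tested IDs. The count was 0 as deposited, against 25.5%. It was also 0 after rescaling without the most abundant ID, against 21.5%, an alternative chosen after seeing the data. At a minimum mean of 5 FPKM, 6 members were tested.

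Leaving out a library left 1 library in an arm, assumed to vary like the others, and 8 of 36 member values changed direction, in 5 members. The log2 differences then ran from 0.09 to 0.66 for *Pdgfrb*, -0.56 to 0.37 for *Rgs5*, -0.62 to -0.06 for *Cspg4*, -0.38 to 0.28 for *Kcnj8*, -0.32 to -0.02 for *Acta2*, 0.13 to 0.88 for *Myh11*, -0.53 to 0.56 for *Tagln*, -0.74 to 0.69 for *Cnn1* and -0.40 to 1.35 for *Eln*. The median over the members ran from -0.32 to 0.37. Of the 9 members, 6 had groups that did not overlap without WT replicate 1 (63.1% of all tested IDs), 4 without WT replicate 2 (59.6%), 4 without miR-187 replicate 1 (67.5%) and 4 without miR-187 replicate 2 (60.7%). An unadjusted p under 0.05 was found for 0 to 1 higher member, *Eln* without WT replicate 2 (0.00554, adjusted 0.585 in limma) and *Myh11* without miR-187 replicate 2 (0.0338, adjusted 0.9996 in limma). The share of all tested IDs under this threshold was 3.42% and 3.30% in these fits, and 6.58% and 6.33% without WT replicate 1 and without miR-187 replicate 1, where 0 members were under it.

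With the replicate block the log2 differences are unchanged by construction (0.51 for *Myh11*), and 0 members passed, while called IDs rose from 1 to 51 of 14325. Libraries with the same number deviated from their groups with r = -0.0675 across IDs and the labels tie the numbers to nothing shared, so they were not taken as pairs.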
